A study of Mus musculus with 2 samples.

Results

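The 45 genes described here encode the machinery that copies DNA: the origin recognition complex, the loaders and the MCM helicase, the polymerases, the sliding clamp and its loader, the enzymes that finish the lagging strand, and the enzymes that supply nucleotides. They were chosen by name from textbook roles, though with earlier results of these data known. All 45 had a row among the 43346 rows with Ensembl gene identifiers. The tissue was embryonic facial prominence, the source of the face and jaws, taken from B6NCrl mouse embryos at embryonic day 15.5, both sexes mixed, for which the labels name no mutant allele and no treatment. It made a single group of 2 total RNA libraries, labelled as biological replicates, 1 pooling 78 embryos and the other 62. With a single group there is no contrast between conditions, so levels are given in both libraries, with the mean ± SD (n = 2) as a description, and no test was run.

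A cell licenses an origin in G1, when the origin recognition complex, Cdc6 and Cdt1 load a double ring of Mcm2 to Mcm7 onto DNA. In S phase Cdc45 and the GINS complex join each MCM ring to make the active helicase, polymerase alpha with primase lays down primers, and polymerases epsilon and delta extend the leading and the lagging strand. Many of these genes are known targets of E2F transcription factors, so their messenger RNAs are used as marks of proliferating tissue. In tissue RNA, fewer cycling cells and less RNA per cycling cell cannot be told apart.

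Replicate 1 held 37128010 expected counts and replicate 2 held 38543623, and the 45 genes took 0.371% and 0.379% of the counts on genes. Counts per gene and library ran from 373.5 for Orc1 to 10493 for Mcm6, so no member was near the limit of detection. All 5 facial mesenchyme markers reached 1 TPM in both libraries, among them Msx1, a transcription factor, at 145 and 158 TPM. The 2 forebrain markers were under 1 TPM in both libraries, and neither heart marker reached 1 TPM in both. Of 3 liver markers 2 did, at low levels: Alb at 2.48 and 2.02 TPM and Apoa2 at 1.02 and 1.48 TPM. Cartilage, bone, muscle, epithelium, blood and nerve markers were all present, so the levels below are sums over many cell types.

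TPM gives a gene's transcripts as a share of all transcripts in a library, corrected for length, so genes can be set side by side on it. All 45 genes were detected, that is, reached 1 TPM in both libraries, and 44 were at 10 TPM or more in both, against 64.4% of the 14052 detected protein coding genes. At 50 TPM or more in both there were 27 of the 45, against 21.8%. Their median level was 61.35 ± 0.495 TPM (SD, n = 2), where the median of the detected coding genes was 18.04 ± 0.0424 TPM, and 38 of the 45 lay above the latter. The lowest was Orc1 at 5.96 and 5.88 TPM, and the highest was Pcna at 167 and 155 TPM. In the plot of levels by complex, the dots of the 2 libraries nearly coincide for most genes, while subunits of some complexes lie far apart.

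**Figure D1:**
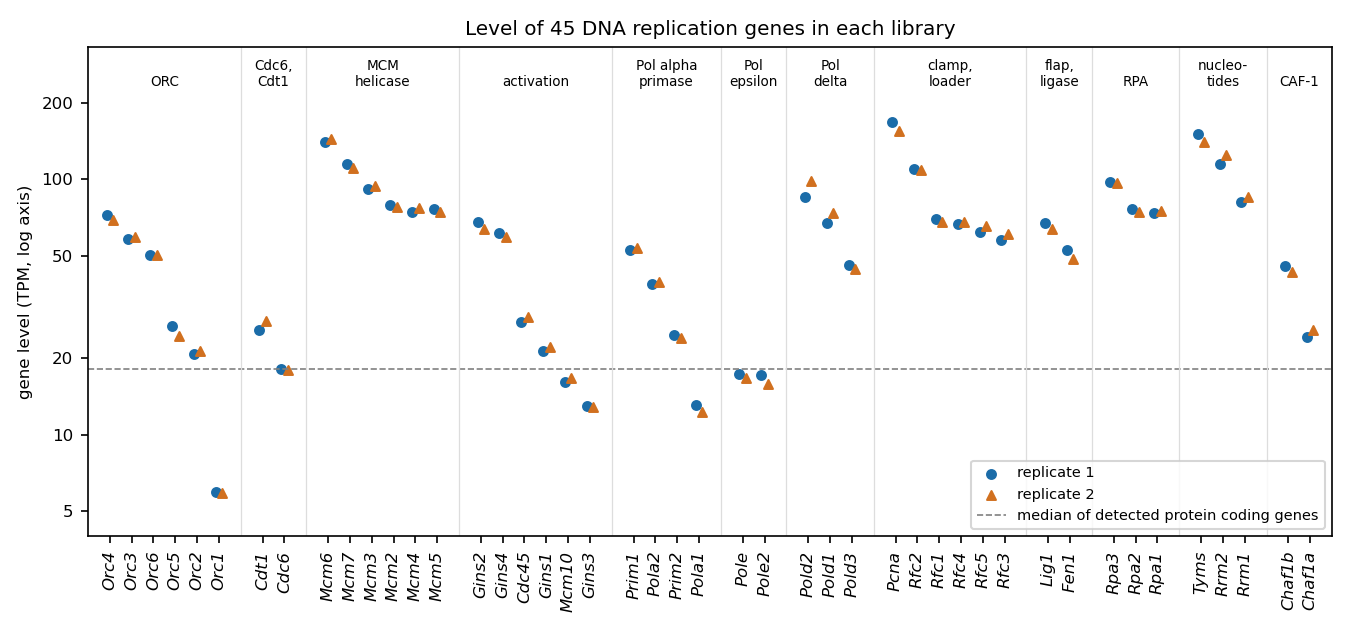
Level of each gene in TPM (log axis) in replicate 1 (circles) and replicate 2 (triangles), grouped by complex and ordered by mean within it; the dashed line is the median of detected protein coding genes, 18.04 TPM. Orc1 is the lowest at 5.96 and 5.88 TPM, and all 6 MCM genes and all 6 clamp and clamp loader genes lie above 50 TPM.

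Each complex contains its subunits in fixed proportion in the protein, and the transcripts can be compared with that. Across 12 complexes or functional groups, the members were ordered by mean level, which gave 33 pairs of neighbours. In 28 of the 33 the gap between neighbours on the log2 scale was larger than the difference between the replicates of either gene and the order held in both libraries. In 24 of the 33 the deposited credibility bounds, whose level is not given in the sources used here, were also apart. The full order was the same in both libraries in 10 of the 12 groups, the MCM helicase and RPA being the exceptions. In 4 groups the highest member was 2 times the lowest or more in both libraries. They were the origin recognition complex, the helicase activators, polymerase alpha with primase, and the clamp with its loader. In the last, the clamp gene Pcna is set against Rfc3, a subunit of the separate loader. That span is therefore not one within a single complex.

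The origin recognition complex marks origins and had the widest range of the 12 groups at the gene level. Orc4, one of its ATPase-fold subunits, was highest at 72.4 and 69.1 TPM. Orc1, the ATPase subunit at chr4:108579423-108614833 on the plus strand of GRCm38, was lowest at 5.96 and 5.88 TPM. Orc4 was therefore 12.1 times Orc1 in replicate 1 and 11.8 times in replicate 2. Between them the order was Orc3, Orc6, Orc5 and Orc2, with means of 59.1 ± 0.750, 50.6 ± 0.0141, 25.6 ± 1.62 and 20.9 ± 0.410 TPM. All 5 gaps in this order were larger than the replicate differences. By TPM most of the Orc4 level came from noncoding transcripts, although coding transcripts took 51.0% of its counts. With protein coding transcripts alone Orc4 was 4.615 times Orc1, and Orc6, the subunit outside the ring of ATPase-fold subunits, became the highest at 50.6 TPM in both libraries, 9.98 and 10.6 times Orc1. The 2 loaders lay at the lower end of the 45. Cdt1, which escorts the MCM ring to the origin, was at 25.8 and 27.9 TPM, and Cdc6, the ATPase that helps close it on DNA, at 18.1 and 17.8 TPM.

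The 6 MCM genes, by contrast, were all abundant and close together. Mcm6 (chr1:128331590-128359664, minus strand) was highest at 140.3 and 144 TPM, and Mcm5 (chr8:75109569-75128439, plus strand) was lowest by mean at 76.4 and 74.8 TPM. The highest subunit was 1.88 times the lowest in replicate 1, where Mcm4 was lowest, and 1.93 times in replicate 2. Mcm7 followed Mcm6 at 115 and 111 TPM, then Mcm3 at 91.4 and 94.0 TPM. Mcm2, at 79.6 and 77.9 TPM, and Mcm4, at 74.7 and 77.5 TPM, could not be ordered against each other beyond the replicate difference, and neither could Mcm4 and Mcm5. So at the gene level Mcm6, Mcm7 and Mcm3 could be placed in order, and the other 3 lay between 74.7 and 79.6 TPM. The place of Mcm3 rests in part on retained intron transcripts. With protein coding transcripts alone it was the lowest of the 6 by mean, at 66.25 and 67.24 TPM. The gene-level median of the 6 was 85.7 ± 0.308 TPM, where that of the origin recognition complex was 38.1 ± 0.803 TPM.

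The 6 genes whose proteins turn the loaded MCM ring into a moving helicase were all lower than the MCM genes. Gins2 was highest at 68.1 and 63.7 TPM and Gins3 lowest at 12.95 and 12.9 TPM, so partners in the same complex differed 5.26 and 4.95 times at the gene level. Gins4 was at 61.7 and 59.3 TPM, and Gins1 at 21.2 and 22.0 TPM. Cdc45, the other partner of the ring, was at 27.6 and 28.8 TPM. Mcm10, which acts in helicase activation and does not belong to the ring, was at 16.1 and 16.7 TPM. All gaps in this group were larger than the replicate differences, but the place of Gins2 rests on a short noncoding transcript: with protein coding transcripts alone it was 1.193 times Gins3.

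Among the polymerases, the primer-making complex again showed unequal subunits. Prim1, the catalytic subunit of primase, was at 52.6 and 53.9 TPM, while Pola1, the catalytic subunit of polymerase alpha, was at 13.1 and 12.2 TPM. Their ratio was 4.03 and 4.40, with Pola2 at 39.1 ± 0.559 TPM and Prim2 at 24.2 ± 0.516 TPM between them. Pola1 lies on the X chromosome (chrX:93304767-93632155, minus strand) and was the longest gene of the set by span. The 2 genes of polymerase epsilon were close: Pole, the catalytic subunit, was at 17.2 and 16.7 TPM, and Pole2 at 17.1 and 15.7 TPM. The gap of 0.05 on the log2 scale was smaller than the replicate difference of Pole2, 0.12, so they could not be ordered. Their median of 16.7 ± 0.682 TPM was the lowest of the 12 groups, and polymerase delta was higher, at a median of 70.6 ± 4.53 TPM.

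Polymerase delta was led by Pold2 at 85.6 and 98.7 TPM, with Pold1, the catalytic subunit, at 67.4 and 73.8 TPM and Pold3 at 46.0 and 44.4 TPM. Pold2 was 1.86 times Pold3 in replicate 1 and 2.22 times in replicate 2, the only group that passed 2 in a single library. Between the libraries a short transcript differed most: Pold2-204, a retained intron transcript of 498 nt, was at 9.49 and 24.4 TPM, while the protein coding Pold2-201 was at 74.7 and 73.5 TPM. On scaled counts the 2 libraries differed in Pold2 by 0.05 on the log2 scale.

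Pcna, the ring that tethers polymerases to DNA (chr2:132249162-132253314, minus strand), had the highest level of the 45. Its loader is made of Rfc1 to Rfc5. Rfc2 was highest of these at 109.9 and 109.1 TPM, and Rfc3 lowest at 57.7 and 61.0 TPM. Rfc1, Rfc4 and Rfc5 lay between, at 69.1 ± 1.17, 67.3 ± 0.990 and 63.7 ± 2.53 TPM, and Rfc4 could not be ordered against Rfc5. Of the 5 loader genes, 4 lie on chromosome 5 (Rfc1, Rfc2, Rfc3 and Rfc5), which holds 8 of the 45 genes in all and 6.02% of the detected coding genes. A processed pseudogene of Pcna, Pcna-ps2, had 2.59 and 0.95 TPM, and reads shared with such copies may be split between them.

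For the finishing of the lagging strand, Lig1, the ligase that seals fragments, was at 67.4 and 63.9 TPM, and Fen1, the nuclease that trims flaps, at 52.7 and 48.8 TPM. The 3 RPA genes, whose products coat single-stranded DNA, spanned 1.32 times in replicate 1 and 1.30 times in replicate 2. Rpa3 was highest at 97.3 and 96.5 TPM. Rpa2, at 76.5 and 74.4 TPM, and Rpa1, at 73.8 and 75.4 TPM, changed places between the libraries. The nucleotide enzymes had the highest median of the 12 groups, 119 ± 7.07 TPM. Tyms, thymidylate synthase, was at 150.1 and 140.1 TPM, followed by Rrm2 and Rrm1, the small and large subunit of ribonucleotide reductase, at 114 and 124 TPM and at 81.7 and 85.6 TPM. In CAF-1, which deposits histones behind the fork, Chaf1b was at 45.7 and 43.2 TPM and Chaf1a at 24.1 and 25.6 TPM.

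The level of a gene adds up all its annotated transcripts, including those with a retained intron or marked for nonsense-mediated decay. A short transcript takes a large part of TPM from few reads, since TPM divides by length. Summed over members, protein coding transcripts took a median of 91.3% of the gene's transcripts, against 97.4% over the 10682 coding genes with at least the lowest member count. In 15 of the 45 genes all of it was protein coding, and in 40.7% of the background genes. The leading transcript was the same in both libraries in all 45 genes and in 95.2% of the background. A single annotated transcript was found for 10 of the 45 and for 25.3% of the background, so these shares are near the background. It took under 50% of its gene in 6 genes (Orc3, Orc4, Pole, Rfc1, Fen1 and Tyms), where 17.9% of the background genes did so.

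In 3 genes the leading transcript was not protein coding, of 44 whose leading transcript is in GENCODE M21, and the background share was 6.03%. For Tyms (chr5:30058202-30073617, minus strand) it was Tyms-205, a transcript of 797 nt marked for nonsense-mediated decay, with 67.7 and 63.8 TPM. The full protein coding Tyms-201, of 3163 nt, had 10.6 and 11.2 TPM. So 7.04% and 7.96% of Tyms transcripts were counted as coding, although coding transcripts took 20.2% of the gene's counts. For Gins2 (chr8:120578633-120589304, minus strand) it was Gins2-204, a retained intron transcript of 511 nt, at 73.7% and 69.3% of the gene. The coding Gins2-201, of 3900 nt, had 16.4 and 14.5 TPM, and took 67.7% of the counts. For Orc4 the leading Orc4-212, a processed transcript of 1477 nt with no coding sequence, took 24.2% and 28.1%, and coding transcripts together made 21.8 and 23.5 TPM of 72.4 and 69.1 TPM.

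The other genes with a divided signal were of several kinds. Fen1 was divided among coding transcripts, with Fen1-201, Fen1-202 and Fen1-203 at 39.4%, 35.4% and 25.2% in replicate 1 and 39.0%, 37.9% and 20.8% in replicate 2. Orc3 was led by the coding Orc3-201 at 37.6% and 40.0%. Pole was led by its full transcript Pole-201, of 7163 nt, at 31.4% and 30%, almost matched by the 747 nt coding Pole-203 at 28.1% and 29.8%. In Lig1, the 944 nt coding Lig1-206 led with 34.7 and 35.2 TPM but took 28.1% of the counts. The coding Lig1-201, of 3091 nt, had 10.3 and 12.6 TPM, so the Lig1 level rests largely on a short transcript. The leading Rfc1 transcript, of 485 nt, took 44.5% and 42.0% and has no entry in M21. Transcripts without an entry made 91.4% of Rfc1, so no coding level was computed for it. Retained intron transcripts took 25% or more in 8 genes (Mcm3, Gins2, Mcm10, Pole, Pold1, Rfc5, Rpa1 and Tyms), where 8.93% of background genes reached this. Whether such transcripts are nuclear precursors, stable isoforms or reads given to the wrong isoform was not tested.

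**Figure D2:**
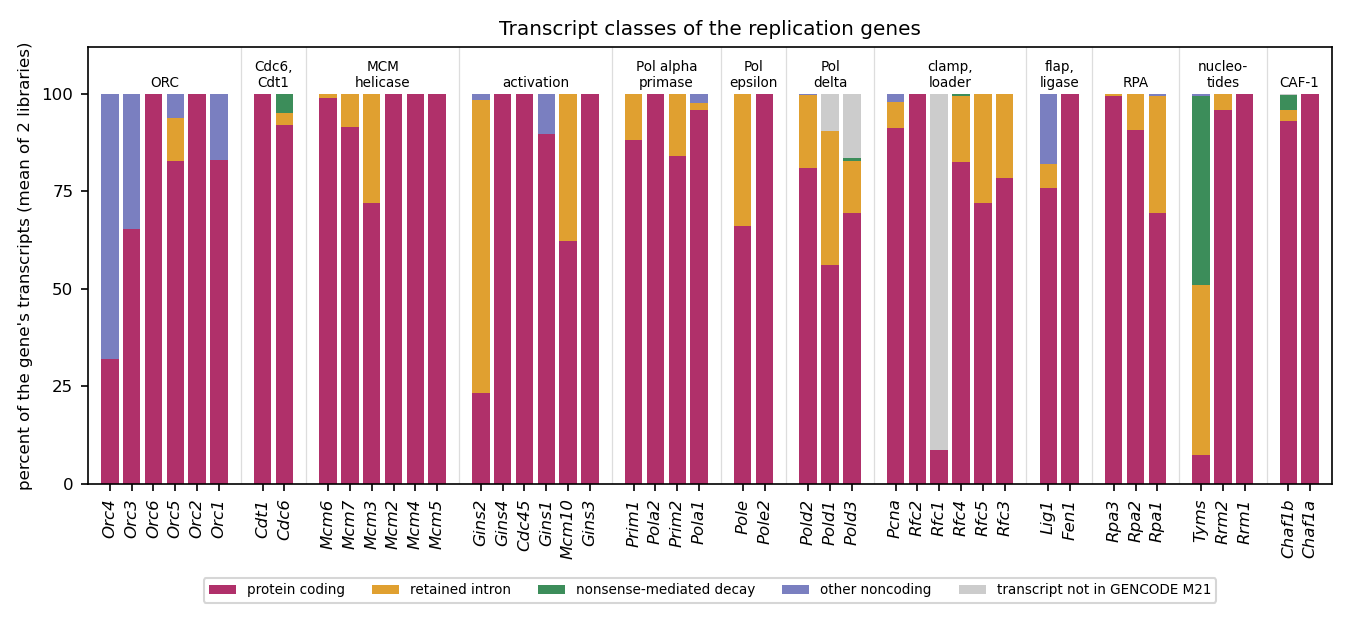
Percent of each gene's transcripts (by TPM, mean of 2 libraries) in each annotated class, stacked, with genes grouped by complex. Orc4, Gins2 and Tyms are mostly noncoding classes, while genes such as Mcm2, Mcm4 and Mcm5 are wholly protein coding, and Rfc1 is mostly transcripts without an entry in M21.

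With protein coding transcripts alone the order within complexes changed in part. Then 7 of 12 groups, not 4, had a highest member at 2 times the lowest or more in both libraries. The highest gene stayed the same in 7 groups and the lowest in 6. Mcm3 moved to the bottom of the ring at 66.2 and 67.2 TPM, while Mcm6 stayed on top at 139.8 and 142 TPM. Gins4 became the highest activator and Mcm10 the lowest, at 10.3 and 10.1 TPM. Pole lay below Pole2, at 11.2 TPM in both libraries. Tyms went from first to last of the nucleotide enzymes, with Rrm2 at 110 and 119 TPM now highest, and this group then spanned 10.4 and 10.7 times, about as wide as the origin recognition complex. The plot of gene levels against their coding part shows these as the long lines.

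**Figure D3:**
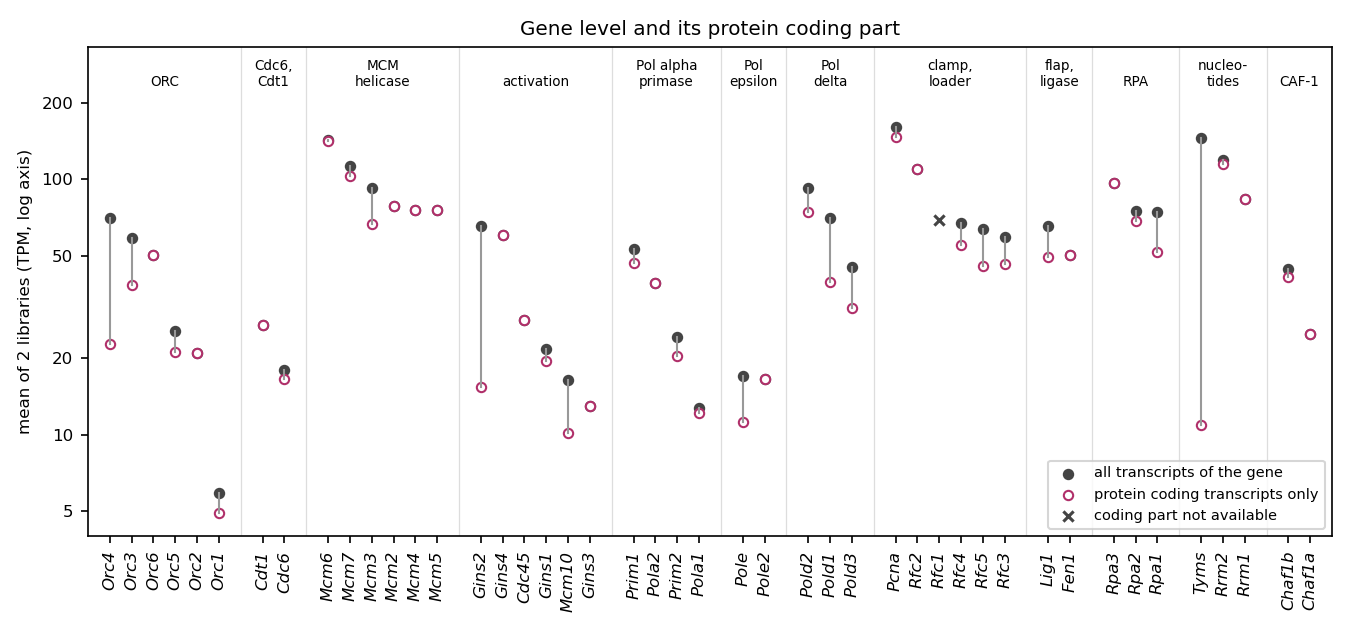
Mean of 2 libraries in TPM (log axis) for all transcripts of a gene (filled circles) and for protein coding transcripts alone (open circles), joined by a line; a cross marks Rfc1, for which no coding part was computed. The longest lines are those of Tyms, from 145 to 10.9 TPM, and Gins2, from 65.9 to 15.4 TPM.

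Promoters were read in the RefSeq table for GRCm38.p6, 250 bases before to 50 after the start, which has an entry for 38 of the 45 genes. Mcm4, Gins1, Gins2, Gins4, Prim2, Pole and Rfc2 have none. The E2F motif was searched as the 8 letters TTTCCCGC, TTTGGCGC, TTTCGCGC and TTTGCCGC on both strands, with overlapping matches counted as 1 site. It was found in promoters of 15 of the 38 genes, that is 39.5%, against 4.5% of the 10932 detected coding genes with a promoter entry and 2.26% of all 32851 promoters. The 15 are Orc1, Orc3, Cdc6, Cdt1, Mcm3, Mcm5, Mcm6, Mcm7, Gins3, Pola1, Pole2, Pold1, Pold3, Rfc3 and Lig1. TTTCCCGC was found in 8 of the 38, TTTGGCGC in 6, TTTCGCGC in 6 and TTTGCCGC in 0. A match describes letters and does not show that a factor binds there.

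The promoters below are shown because they hold the sites behind this count: the gene with the most sites in each of 6 groups, ties being broken by the higher level, and the other MCM genes with a site. Each line runs 5′ to 3′ on the gene's strand, with E2F matches in capitals.
Mcm6 (chr1:128359676-128359955, minus strand): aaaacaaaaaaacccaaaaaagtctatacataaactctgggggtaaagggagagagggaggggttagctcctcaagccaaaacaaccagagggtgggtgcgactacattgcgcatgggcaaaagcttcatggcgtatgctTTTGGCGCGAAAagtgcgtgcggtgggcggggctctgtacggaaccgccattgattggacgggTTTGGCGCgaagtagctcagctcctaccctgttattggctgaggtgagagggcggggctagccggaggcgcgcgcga
Mcm7 (chr5:138171854-138172074, minus strand): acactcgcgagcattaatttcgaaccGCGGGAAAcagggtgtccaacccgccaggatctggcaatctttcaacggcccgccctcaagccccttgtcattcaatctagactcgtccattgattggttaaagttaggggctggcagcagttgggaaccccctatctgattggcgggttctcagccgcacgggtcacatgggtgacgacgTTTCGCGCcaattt
Mcm3 (chr1:20820265-20820294, minus strand): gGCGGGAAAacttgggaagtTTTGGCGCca
Mcm5 (chr8:75109330-75109393, plus strand): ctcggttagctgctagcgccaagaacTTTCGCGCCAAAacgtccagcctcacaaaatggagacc
Rfc3 (chr5:151651179-151651244, minus strand): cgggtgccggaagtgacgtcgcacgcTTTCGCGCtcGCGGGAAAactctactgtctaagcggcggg
Pold1 (chr7:44548766-44548787, minus strand): cgtatcttgtgGCGGGAAAagc
Lig1 (chr7:13278841-13278870, plus strand): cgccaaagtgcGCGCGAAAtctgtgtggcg
Orc3 (chr4:34614950-34615009, minus strand): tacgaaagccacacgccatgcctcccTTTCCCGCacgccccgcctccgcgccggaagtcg
Cdt1 (chr8:122568036-122568064, plus strand): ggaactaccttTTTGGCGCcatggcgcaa

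The MCM genes had the largest count of the 12 groups: 4 of the 5 with a promoter entry held an E2F match. The share was higher in the loaders, at 2 of 2, and in polymerase epsilon, at 1 of 1, and lower in the other groups. Mcm3, Mcm6 and Mcm7 held 2 sites each. Rfc3 was the fourth gene with 2 sites, and its pair is separated by only the lower case letters between the capitals above. Mcm6 and Mcm5 each held a 12 base run in which matches on the 2 strands overlap. Of 19 E2F sites in all, 14 lay within 50 bases of the start on either side, the farthest upstream beginning at position -165 in Mcm7. None of the 3 RPA, 3 nucleotide and 2 CAF-1 genes held a match to these 8 letter forms. With the 7 base cores TTCCCGC and TTGGCGC, 2 of the RPA genes (Rpa2 and Rpa3), 1 nucleotide gene (Rrm1) and both CAF-1 genes held one, so that absence depends on the motif used. The 15 genes with a match had a median level of 59.1 TPM and the 23 without one of 67.3 TPM, and their ranges, 5.92 to 142 TPM and 16.4 to 161 TPM, overlapped.

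**Figure D4:**
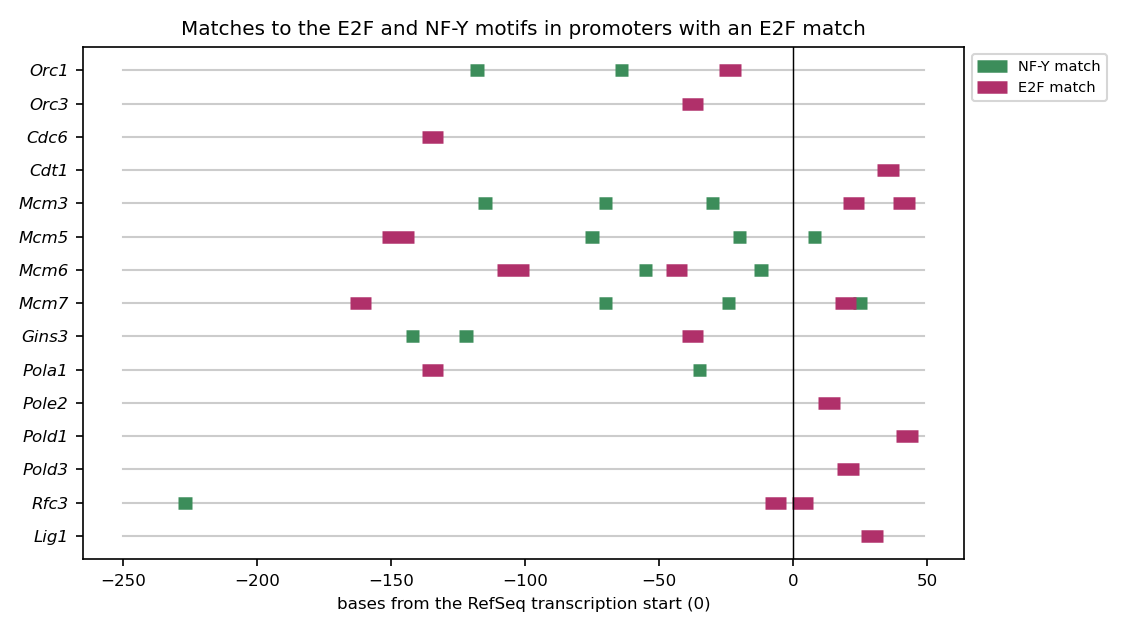
Matches to the E2F motif (red) and to the NF-Y motif (green) in the promoters that hold an E2F match, by distance in bases from the RefSeq start (0); each grey line is the searched window. Of 19 E2F sites, 14 lie within 50 bases of the start, and the Mcm3, Mcm5, Mcm6 and Mcm7 promoters hold both motifs.

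CCAAT, the box bound by NF-Y, was found on either strand in 24 of the 38 genes, against 42.7% of the background genes. All 5 MCM genes with an entry and all 3 RPA genes held it. Both it and an E2F match were held by 8 of the 38: the 4 MCM genes above, Orc1, Gins3, Pola1 and Rfc3. The share of background genes with both was not computed, so this count cannot be called high or low. TTTGAA, an element of G2 and M phase genes, was found in 5 genes, against 14.5%. TATAAA was found in 3 genes (Pold2, Cdc45 and Fen1), against 9.59%. The 2 last shares rest on few genes.

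Several members share their start region with another gene. A protein coding gene on the opposite strand began within 1000 bases, head to head, for 12 of the 45, and the background share was 15%. Both partners were at 10 TPM or more in both libraries in 9 of the 12 pairs. The member had the higher level in 7 pairs and the partner in 5. Orc1 was far below its partner, the splicing factor gene Prpf38a, whose start is 87 bases away and which had 66.2 and 61.9 TPM. Mcm4 was the opposite case: its partner Prkdc, the DNA repair kinase gene 466 bases away, had 4.59 and 4.57 TPM.

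In the other pairs where the partner was higher, Vps35 beside Orc6 had 104 and 109 TPM, Ufd1 beside Cdc45 had 65.6 and 67.1 TPM, Abhd12 beside Gins1 had 60.0 and 62.4 TPM, and Tmem258 beside Fen1 had 366 and 353 TPM. In the pairs where the member was higher, Rars2 beside Orc3 had 43.0 and 47.7 TPM, 13 bases from the Orc3 start. Mbd5 beside Orc4 had 16.5 and 16.7 TPM, Ap4m1 beside Mcm7 had 23.3 and 22.0 TPM, and Pxmp2 beside Pole had 3.89 and 5.15 TPM. Smyd4 beside Rpa1 had 10.6 and 10.9 TPM, and Umad1 beside Rpa3 had 22.2 and 20.8 TPM. No single relation between partner levels held across the pairs.

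Overlap may bear on the counts as well. The models of 13 members overlap a detected coding gene, 12 of them one on the opposite strand. The share over all detected coding genes was not computed, so this count cannot be called high or low. The strand setting of the counting is not given in the sources used here. Whether reads from bases shared with a gene on the opposite strand were kept apart is therefore not known. Mcm7 overlaps Cops6, at 257 and 238 TPM, by 64 bases, and Rfc4 overlaps Eif4a2, at 188 and 180 TPM, by 194 bases. Longer overlaps on the opposite strand include Orc2 with Nif3l1, at 32.5 and 35.5 TPM, by 19046 bases. Chaf1a overlaps Ubxn6, at 43.9 and 45.8 TPM, by 5245 bases. Cdt1 lies wholly within Gm20388, a coding model on the same strand at 5.78 and 7.63 TPM. Mcm7 also hosts the microRNA genes Mir25, Mir93 and Mir106b, which were listed at 0 TPM in both libraries, with RNA over 200 nt entering the libraries.

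A wider set of 85 genes in 9 lists, which also covers E2F and RB genes and genes of cell cycle exit, had a lower pooled median. Of these, 84 were detected and 72 were at 10 TPM or more in both libraries, the latter against 64.4% of the detected coding genes. Their median was 27.6 ± 1.17 TPM, against 18.04 TPM for the detected coding genes. The lists differed, however. The genes for chromatin behind the fork had a median of 69.3 ± 0.962 TPM, above that of the 45 genes. The further nucleotide and maturation genes had 55.3 ± 1.53 and 53.3 ± 1.30 TPM. Lower medians were those of the E2F and RB genes, 18.6 ± 1.09 TPM, and the cycle exit genes, 19.3 ± 2.09 TPM, both near that of the detected coding genes. The remaining polymerase and helicase subunits differed in level. Pole3 and Pole4, the histone-fold subunits of polymerase epsilon, were at 71.7 and 68.8 TPM and at 71.8 and 69.9 TPM, above the 2 polymerase epsilon genes in the set. Pold4, the smallest subunit of polymerase delta, was at 22.0 and 21.3 TPM, and Mcmbp, which binds MCM proteins, at 43.2 and 42.9 TPM. Mcm8 and Mcm9, relatives of the ring that act in recombination, were at 8.62 and 9.04 TPM and at 3.97 and 4.28 TPM, far below Mcm2 to Mcm7. Geminin, the inhibitor of Cdt1 encoded by Gmnn, was at 58.0 and 54.2 TPM, above Cdt1 itself.

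Among the 13 licensing and firing genes, Ccna2, the S phase cyclin A2, was highest at 106 TPM in both libraries, and Recql4 lowest at 3.90 and 4.12 TPM. Of the 10 fork protection genes, Tipin was highest at 114 and 119 TPM and Hus1 lowest at 9.89 and 9.84 TPM. Of the 4 genes of alternative clamp loaders, Chtf8 was at 68.0 and 75.6 TPM and Atad5 at 6.81 and 7.33 TPM. The 8 maturation genes ran from Dna2, at 11.3 and 10.9 TPM, to Top2a, at 135 and 127 TPM. The 10 further nucleotide genes ran from Rrm2b, at 6.21 and 5.03 TPM, to Dtymk, at 167 and 171 TPM. Rrm2b, the small reductase subunit used outside S phase, was thus far below Rrm2.

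All 12 genes for chromatin behind the fork were at 10 TPM or more, with Rbbp7 highest at 338 and 339.6 TPM and Mms22l lowest at 16.0 and 19.6 TPM. Of the 15 E2F and RB genes, 12 were at 10 TPM or more, and both counts stand against 64.4% of the detected coding genes. Tfdp1, the dimer partner of E2F proteins, was highest at 124 TPM in both libraries, and Lin54 lowest at 8.27 and 7.25 TPM. Genes of cell cycle exit were expressed in the same tissue: Cdkn1c, the inhibitor p57, was at 1084 and 922 TPM, more than any of the 45, while Cdkn2a was at 0.10 and 0.05 TPM.

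The ratio of replicate 2 to replicate 1, from counts scaled between libraries, asks how alike the 2 pools were. The threshold was a ratio of 0.32 on the log2 scale. None of the 45 genes was past it in either direction, where 2.25% of the 10682 background genes were past it upwards and 2.16% downwards. Of the 45, 19 had a ratio above 0 on the log2 scale, against 48.5% of the background. The background genes had at least the lowest member count but were not matched to the members by count. The median over the 45 genes was -0.01 and their SD was 0.06, where the SD over the background genes was 0.16. The 5 largest were Pole2 at -0.12, Pcna at -0.12, Rfc3 at 0.12, Orc5 at -0.12 and Cdt1 at 0.12. In counts, Pole2 had 674 and 645, Pcna 5607 and 5376, Rfc3 1650 and 1868, Orc5 1256 and 1206, and Cdt1 1328 and 1500.

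Some cell type markers differed more between the same libraries than the replication genes, and others did not. All 3 cartilage markers were past the threshold upwards, with a median log2 ratio of 0.63, and all 3 skeletal muscle markers were past it downwards, with a median of -0.39. In the 4 erythroid markers the median was -0.37, with Klf1 the other way at 0.27. Of the 3 bone markers Bglap was past the threshold at -0.96, with Ibsp the other way at 0.21. Of the 3 neuron markers Elavl3 was past it at 0.43. At low levels, 2 of 3 liver markers were past it upwards and 1 of 2 heart markers downwards. None of the facial mesenchyme, epithelium, endothelium, macrophage and forebrain markers was past the threshold. The median absolute ratio was 0.03 for both the endothelium and the macrophage markers, below the 0.05 of the 45 genes. Col2a1, the cartilage collagen, was at 182 and 305 TPM, and Myh3, the embryonic myosin, at 176 and 118 TPM. The 7 genes of cell cycle exit were all lower in replicate 2, with a median of -0.16. In the 85 genes of the other lists the median was -0.01, with 2 past the threshold downwards. They were E2f2, of the E2F and RB list, at -0.34, and Cdkn2a, of the cycle exit list, which had 2 and 1 counts. The part of the tissue's makeup in the small ratios of the replication genes was not tested.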

How the data were processed

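Per the labels and the text deposited with the samples, the authors aligned total RNA reads to mm10 with annotation M4, 1 library at a time; aligner, counting program and strand setting: not given in the sources used here. Per the file headers, the deposited tables give expected count, TPM, posterior mean TPM, the percent of a gene taken by each transcript, and credibility bounds, recorded here as a score. Deposited TPM counts 97 spike-ins and 26248 numbered sequences in its total; spike-ins took 2.91% and 4.59% of the counts. Names and transcript classes came from GENCODE M21, which holds 42462 of the 43346 identifiers.

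The 45 genes, all other lists and the tissue markers were chosen with earlier results of these data known. For ratios, expected counts were rounded and scaled by TMM (factors 0.989 and 1.01, edgeR 4.0.16, R 4.3.3) with a prior count of 2, a step tested on simulated data. Size factors from DESeq2 1.42.0 served as an alternative scaling. The median ratio of the 45 genes was -0.0076 with them and -0.0089 with TMM. Other steps used Python 3.11.15 with pandas 2.3.3, numpy 2.4.6 and matplotlib 3.10.9. Background genes for ratios and transcripts had at least the lowest count of a member, 373.5. Where 25% or more of a gene lay in transcripts outside M21, no coding level was computed. All 45 genes are named; per-library values were set for the highest and lowest of each complex, the 5 largest ratios, divided or noncoding leading transcripts, and genes with a head-to-head partner. Further per-library values, the further MCM promoters and the tie rule were added after the values were seen. At most 30 transcribed bases of a promoter are printed. The transcribed bases of 38 of 46 promoters matched a transcript forward and of 0 in reverse. The printed Mcm6 and Mcm5 promoters were not among the 38, so their site distances rest on the RefSeq start alone. Both libraries carry the same donor label, so the SD (n = 2) describes the spread between 2 pools.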

Additional observations from a re-analysis of the deposited data

How the results depend on the processing

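The median level of the 45 genes was 61.35 TPM, 60.64 TPM with posterior means and 66.91 TPM when TPM was taken over Ensembl genes alone, and 61 to 61.7 TPM in single libraries. Protein coding transcripts alone gave 7 groups with a 2-fold span instead of 4, single libraries 4 to 5. They also turned 3 ratios named by the gene-level order: Pole over Pole2 to 0.6827, Lig1 over Fen1 to 0.984 (Lig1 was lower in replicate 1 and higher in replicate 2) and Tyms over Rrm1 to 0.1299. Scaling by spike-in counts moved the median ratio of the 45 genes to -0.6613, with 45 genes past the threshold of 0.32. The median of all background genes went to -0.66. A change of scaling shifts all genes of a library alike, so this cannot show the 45 against the rest. A background of coding genes with 10 or more counts had 15.83% past it, against 4.409%. E2F cores of 7 bases (TTCCCGC and TTGGCGC) were found in 23 promoters instead of 15, and in 13.7% of the background. The other 30 alternative values of the main results stayed within the limits set for a change, the single-library medians by construction. For the highest-to-lowest ratio of each of the 12 groups, leaving out a library or rescaling TPM cannot move the value beyond the replicate SD. With posterior means 11 stayed within that SD and 1 moved, and with protein coding transcripts alone 2 stayed, 7 moved and 3 reversed. No paired analysis was possible because there is a single group and no test. A search for protein motifs was not run. Depth did not limit detection of any of the 45, but with 2 libraries of 1 group no difference can be tested.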
